A study of Mus musculus with 8 samples.

Results

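The genes described here are 33 genes of cholesterol and fatty acid synthesis, chosen by name and all present among the 19909 genes of the deposited expression tables. They comprise 23 sterol genes, of which 18 encode enzymes, and 10 fatty acid genes, and the rule that lists them uses no measured value. Bulk RNA was sequenced from haematopoietic stem cells (HSCs), the bone marrow cells that renew all blood lineages. All mice carried GFP-LC3 (genotype Gfplc3/Gfplc3), a fusion of green fluorescent protein with the autophagosome protein LC3, whose signal is lost as autophagy runs, and all cells were taken at steady state. The young group was 2 libraries of unfractionated HSCs from mice aged 8 to 12 weeks. Old mice, over 24 months of age, gave 3 libraries of the 33% of HSCs with the lowest GFP (AThi, autophagy-high) and 3 of the 33% with the highest (ATlo, autophagy-low). Each library was made from about 10000 cells. Only old cells were gated by GFP, so in comparisons with young the gate and the age cannot be told apart. Libraries are named by the tags in the table headers, which are D11 and D12 in young and, in both old fractions, O10, O11 and O12. Values are given in that order. A tag shared by an AThi and an ATlo library is read as a pair from the same mouse, since the protocol describes paired fractions.

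Cells build cholesterol from acetyl-CoA through mevalonate, isoprenoids, squalene and lanosterol, and build fatty acids from the same acetyl-CoA by carboxylation, chain extension and desaturation. The transcription factor SREBP-2, encoded by Srebf2, drives the sterol genes, and SREBP-1, encoded by Srebf1, drives mainly the fatty acid genes. When sterol is plentiful, the Insig proteins hold the SREBP escort Scap in the endoplasmic reticulum, and the genes of both pathways are turned down. Dividing cells need both products for new membranes.

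Depth, recovered from the normalized values, ran from 33960216 to 61341946 reads per library, and all 3 ATlo libraries were deeper than the other 5. Of 12 HSC marker genes, 12 were detected in every group, with summed levels of 135315 to 139486 normalized counts in young, 133398 to 156001 in AThi and 101094 to 121495 in ATlo. The authors' deposited table called 3 of 12 higher and 0 lower in AThi against ATlo. Against young, 2 were higher and 1 lower in AThi, and 1 higher and 2 lower in ATlo. Markers of multipotent progenitors, over 5 genes, summed to 7117 to 8791 in young, 3137 to 5390 in AThi and 4075 to 5914 in ATlo. Against young, 2 of 5 were called lower in AThi and 1 of 5 in ATlo. Genes of cycling cells moved with the gate. Their summed level over 10 genes was 60767 to 76347 in young, 38252 to 47836 in AThi and 100293 to 112317 in ATlo. By the authors' deposited table, all 10 of 10 were called lower in AThi than in ATlo. In the comparisons with young, 8 of 10 were called lower in AThi and 5 of 10 higher in ATlo. Markers of megakaryocytes, over 6 genes, summed to 3198 to 3542 in young, 8814 to 10184 in AThi and 8689.9 to 12774 in ATlo, with 2 and 5 of 6 called higher against young in AThi and ATlo by the authors' deposited table. Granulocyte markers, 6 of 8 in the tables, summed to 2656 to 2758, 5490.4 to 6992 and 4083 to 5661, with 1 of 6 called higher in each old fraction by the authors' deposited table. The part of these marker genes in differences from young described below was not tested. The 3 libraries with tags D12 and O12 stood apart by B cell transcripts. The 5 B cell markers in the tables, of 10 listed, summed to 10767 normalized counts in young D12, 23877 in AThi O12 and 10117 in ATlo O12, against 654 to 992 in the other libraries. The defining B cell gene Cd79a was at 465, 915 and 496 there and at 0 to 15.7 elsewhere. Xist, the RNA of the inactive X chromosome, was at 97743 in young D11, at 2747 to 5809.5 in the D12 and O12 libraries, and at 32.5 to 171 in the remaining 4. The 6 listed adipocyte markers have no row in the tables and were not analysed here. In bulk RNA, fewer cells of a type and less RNA per cell cannot be told apart.

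The promoter of Hmgcs1, the enzyme that makes HMG-CoA, is printed because it was the only one of these genes' promoters in the RefSeq table that held the sterol element searched for. It lies on chromosome 13, 119690101 to 119690350, plus strand, in GRCm38.p6 (RefSeq), and is given as the 250 bases before the transcription start. Capitals mark TCACNCCAC, letters of the sterol regulatory element that SREBP factors read, and CCAAT, read by NF-Y, on either strand (ATTGG on the opposite one). The motifs do not overlap.
Hmgcs1: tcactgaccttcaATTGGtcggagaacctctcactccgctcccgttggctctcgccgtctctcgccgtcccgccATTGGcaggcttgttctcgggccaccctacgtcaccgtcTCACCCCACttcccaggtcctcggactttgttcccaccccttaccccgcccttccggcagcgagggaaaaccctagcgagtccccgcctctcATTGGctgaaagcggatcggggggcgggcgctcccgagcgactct
The sterol element begins 137 bases before the start. Promoters of 26 of the 33 genes were in the RefSeq table, in windows of 250 bases before to 50 after the start. TCACNCCAC was found for 1 of the 26 (Hmgcs1), or 3.85%, and for 1.44% of all 27025 genes in that table. CCAAT was found for 21 of the 26, or 80.8%, 17 of 19 sterol and 4 of 7 fatty acid genes, and for 41.1% of all genes. A gene counts if any of its promoters matches. Per promoter, CCAAT was in 22 of 35 of these genes' promoters, or 62.9%, and in 37.4% of all 32851. A letter match is a description of the sequence and not evidence of binding.

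All 33 genes were expressed in HSCs. Levels between genes are compared as normalized counts per kilobase of exon, with exons of all GENCODE M21 transcripts of a gene merged. On that scale the highest in young HSCs was Scd2, a stearoyl-CoA desaturase that introduces a double bond into saturated fatty acids, at 1734. Stard4, a carrier of cholesterol between membranes, followed at 1167 and the fatty acid desaturases Fads1 and Fads2 at 1013 and 924. Scd1, another desaturase of this family, was at 148 in young, 365 in AThi and 250.3 in ATlo, below Scd2 in each of the 3 groups. Among regulators, Srebf2 was at 651 and Insig1 at 506, with Scap at 285, Insig2 at 186 and Srebf1 at 185. The best expressed sterol enzymes were Acat2, which joins 2 acetyl-CoA molecules, at 418, Cyp51, which demethylates lanosterol, at 411, and Hmgcs1 at 387. The lowest were Mvk, mevalonate kinase, at 36.6 and Tm7sf2, a sterol reductase, at 21.6 per kilobase. Some levels can include or lack reads shared with neighbours, since the sources used here do not say whether counting used strand. Fdps shares 26.7% of its exonic bases with Gm43738, and Fdft1 shares 18.3% with the antisense gene Ctsb. Scap shares 13.2% with 5830462I19Rik and Hmgcs1 12.1% with Gm48342, both on the opposite strand. Tm7sf2 shares 12.1% with Vps51 and Fdps overlaps Gm43738 on the same strand, where strand would not separate them.

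None of the 33 genes differed between any 2 groups at the threshold used, an adjusted p below 0.05 in the authors' deposited DESeq2 Wald test. The count was 0 of 23 sterol and 0 of 10 fatty acid genes in each of AThi against ATlo, AThi against young and ATlo against young. Over all genes with an adjusted p, 7.9%, 5.04% and 4.34% passed in the same comparisons (3.47%, 3.13% and 2.37% higher, and 4.43%, 1.91% and 1.98% lower in the group named first). At an unadjusted p below 0.05, 1, 4 and 4 of the 33 passed in the deposited DESeq2 test, against 18.0%, 13.8% and 14.3% of all genes. Run on recovered reads, the quasi-likelihood test of edgeR also called 0 of 33 in each comparison, with 1, 3 and 2 at an unadjusted p below 0.05 (15.4%, 11.6% and 12.1% of all genes), and called 1.41%, 1.21% and 0.653% of all genes. Without the 3 libraries that held B cell transcripts, DESeq2 called 0 of 33 in AThi against ATlo. Over all genes it called 793 there, beside 1414 with all libraries. The comparisons with young then rested on D11 alone, and the results of Lss and Scd1 changed, as described below. The comparisons with young share the young libraries and are not independent. A missed threshold does not show that levels were equal, so the 95% Wald interval of each log2 fold change was taken from its deposited standard error. The whole interval lay within 2-fold in either direction for 23 of 33 genes in AThi against ATlo, 22 in AThi against young and 21 in ATlo against young, while 49.8%, 43.8% and 45.2% of all genes had such intervals. For the rest, a 2-fold difference was within the interval.

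**Figure D1:**
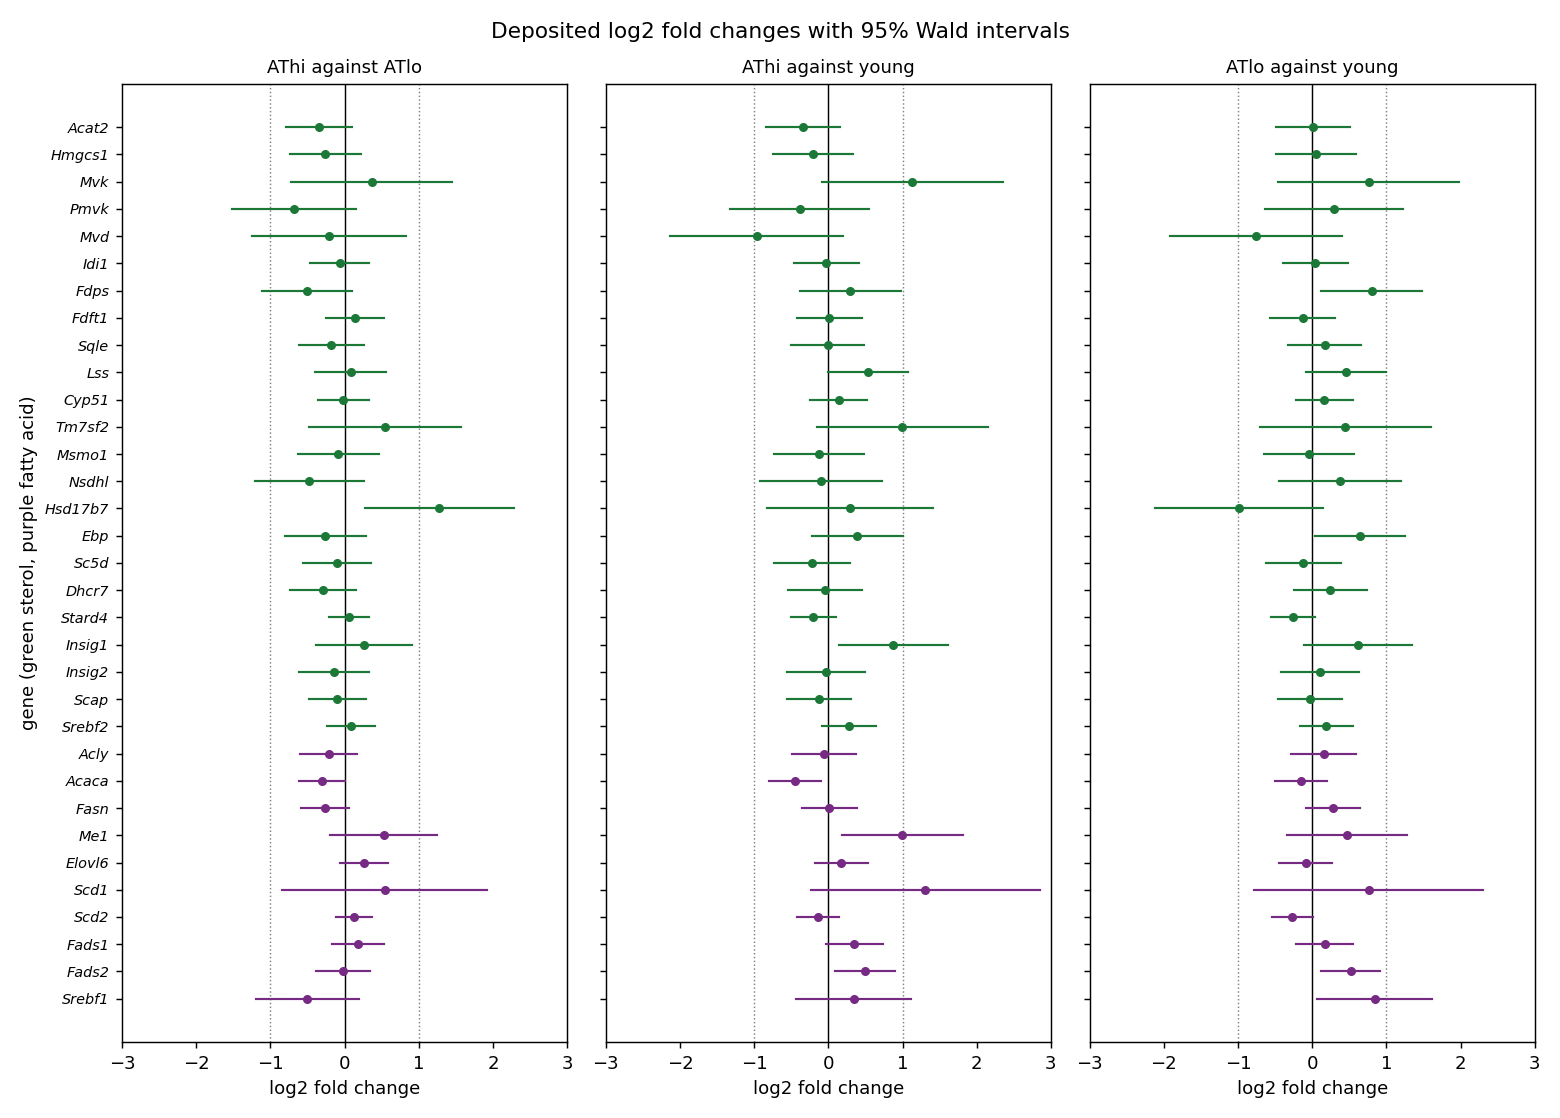
Log2 fold changes of the 33 genes (points, x axis) in the 3 comparisons of the authors' deposited tables, with 95% Wald intervals (lines) and dotted lines at 2-fold; sterol genes are green and fatty acid genes purple. Most intervals span 0, the widest are those of Scd1, Mvk, Tm7sf2, Mvd and Hsd17b7, and 0 of 33 genes passed the adjusted threshold in any panel.

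**Figure D2:**
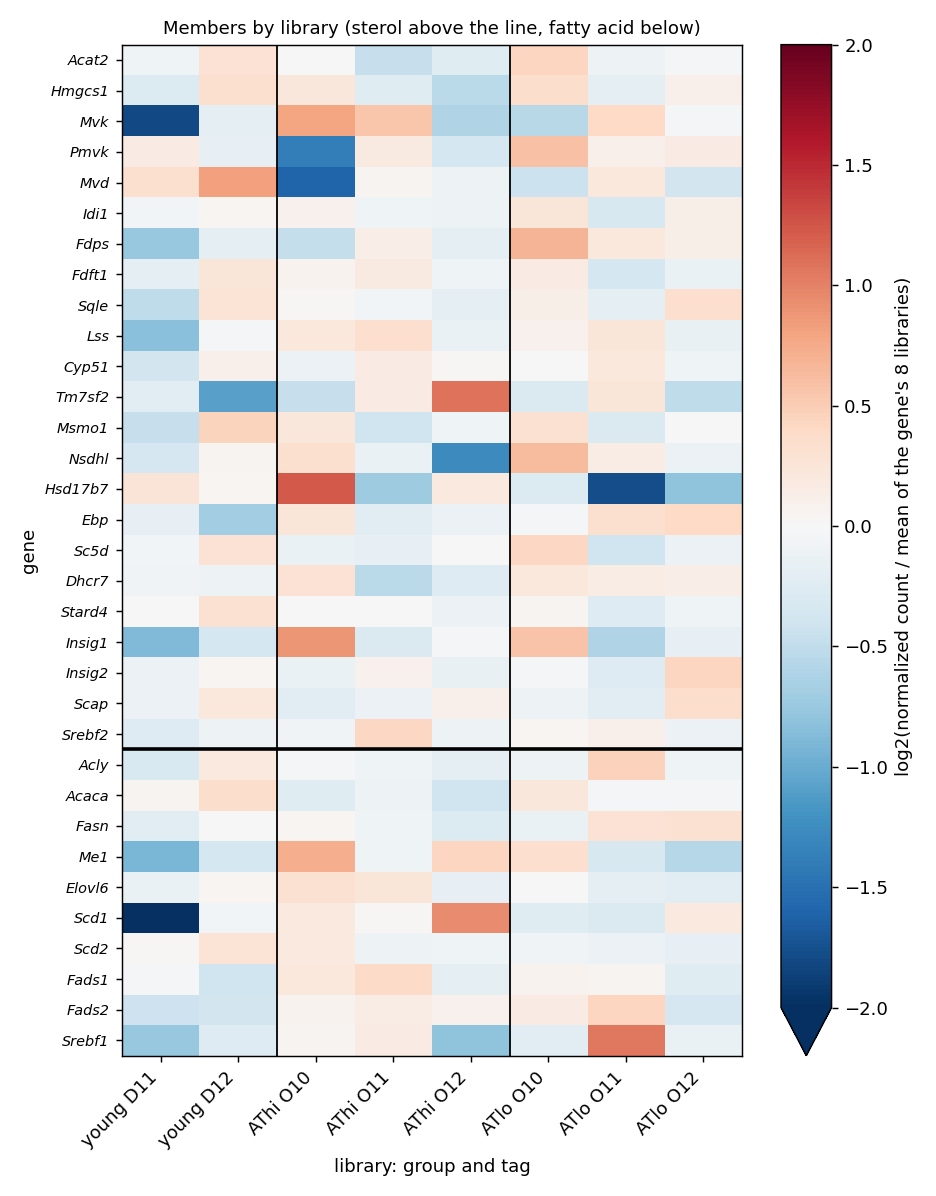
Each cell gives log2 of a gene's normalized count in 1 library over the mean of its 8 libraries (color scale in log2 units, saturated beyond 2), with sterol genes above the horizontal line and fatty acid genes below. Single libraries stand out within groups, such as young D11 for Scd1 (181 normalized counts, against 1263 in D12) and both O10 libraries for Insig1.

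The comparison of AThi with ATlo asks how HSCs of old mice with high autophagy differ from those with low autophagy. None of the 33 listed genes passed. Sterol genes had a median log2 fold change of -0.10 in the authors' deposited table, with 15 of 23 below 0, beside a median of 0.02 over all genes. The gene nearest to a call was Hsd17b7 (chromosome 1, 169949535 to 169969241, GRCm38), a keto-reductase that acts while methyl groups are removed from the sterol. Its normalized counts were 359 and 307 (young), 699.7, 184 and 343 (AThi), and 247, 87.3 and 171 (ATlo). Within each pair of old libraries the AThi value was above the ATlo value, by 1.504, 1.07 and 1.005 on the log2 scale for O10, O11 and O12, although the 2 groups overlapped because O10 was high and O11 low in both fractions. The authors' deposited table gave a log2 fold change of 1.28 (SE 0.51, adjusted p 0.11), with a 95% interval of 0.27 to 2.29, and the edgeR adjusted p was 0.28. When the pair was added to the DESeq2 fit as a replicate block, Hsd17b7 passed (log2 fold change 1.19, adjusted p 0.019), and in the edgeR fit with the block it did not (adjusted p 0.11). Over its 17 alternative fits the adjusted p ran from 0.019 to 0.61. It also passed without AThi O11 (log2 fold change 1.63, adjusted p 0.026) and without ATlo O10 (1.66, adjusted p 0.041) in the DESeq2 refit. Without AThi O10, the highest library, its log2 fold change was 0.65 (adjusted p 0.61).

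Other sterol enzymes had lower values in AThi in every pair without passing the test. The log2 ratios of AThi to ATlo in the pairs O10, O11 and O12 were -0.44, -0.35 and -0.22 for Acat2. For Hmgcs1 they were -0.12, -0.07 and -0.63, and for Fdps, which makes farnesyl diphosphate, -1.15, -0.08 and -0.29. Msmo1 and Nsdhl remove methyl groups at carbon 4 of the sterol, and their ratios were -0.07, -0.10 and -0.08 and -0.32, -0.28 and -1.14. In total 5 of 23 sterol genes were lower in every pair and 3 higher (Lss, Hsd17b7 and Insig1), while over all genes 19.5% were lower and 21.2% higher in every pair. The 23 genes thus stood near the background in both directions. The authors' deposited table gave a log2 fold change of -0.35 (SE 0.23, adjusted p 0.43) for Acat2, a log2 fold change of -0.26 (SE 0.25, adjusted p 0.64) for Hmgcs1 and a log2 fold change of -0.51 (SE 0.31, adjusted p 0.38) for Fdps. Pmvk, phosphomevalonate kinase, had a log2 fold change of -0.68 (SE 0.43, adjusted p 0.40) by the authors' deposited table. Pmvk stood at 90.8, 269 and 186 normalized counts in AThi O10, O11 and O12 and at 358, 254 and 266 in ATlo. AThi O10 was the lowest, and AThi O12 also lay below all ATlo libraries.

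**Figure D3:**
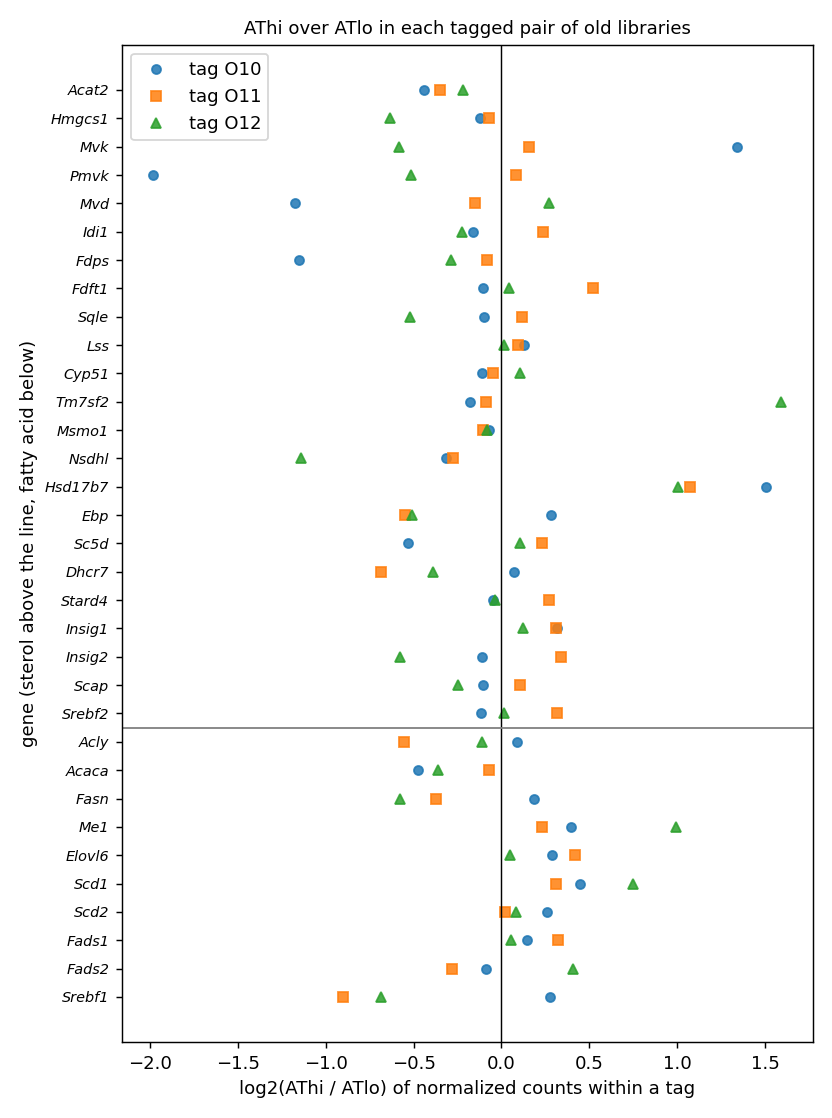
Log2 of the AThi over the ATlo normalized count (x axis) for each gene within the pairs of old libraries that share the tag O10, O11 or O12 (symbols). All 3 symbols of Hsd17b7 lie at or above 1.005, whereas for most genes the 3 pairs scatter around 0.

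Fatty acid genes were split between the fractions, with 5 of 10 log2 fold changes above 0 and a median of 0.05 in the authors' deposited table. The desaturases Scd1, Scd2 and Fads1 and an elongase lay above 0 in all 3 pairs. Scd1 was higher in AThi by 0.45, 0.31 and 0.75 on the log2 scale, Fads1 by 0.14, 0.32 and 0.05, Scd2 by 0.26, 0.02 and 0.08 and Elovl6, which lengthens palmitate, by 0.29, 0.42 and 0.05. Me1, malic enzyme, which supplies NADPH for the synthesis, was higher by 0.40, 0.23 and 0.99. In all, 5 of 10 fatty acid genes were higher and 1 lower in every pair, beside 21.2% and 19.5% of all genes. That difference was not tested. On the low side was Acaca, acetyl-CoA carboxylase, the committing step of fatty acid synthesis (chromosome 11, 84129672 to 84401651). Its normalized counts were 2417 and 2974 (young), 1964, 2175 and 1766 (AThi), and 2727, 2281 and 2270.1 (ATlo). Acaca was the only one of the 33 genes whose AThi and ATlo libraries did not overlap, and 21.4% of all genes showed such a gap (10.4% with AThi above and 11% with AThi below). The authors' deposited table gave a log2 fold change of -0.30 (SE 0.16, adjusted p 0.28) for Acaca, a log2 fold change of -0.26 (SE 0.17, adjusted p 0.40) for Fasn, the fatty acid synthase, a log2 fold change of -0.22 (SE 0.20, adjusted p 0.63) for Acly, which makes cytosolic acetyl-CoA from citrate, and a log2 fold change of -0.50 (SE 0.35, adjusted p 0.48) for Srebf1. The cell cycle genes named above differed in the same gates, and their part in these values was not tested.

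The comparisons with young ask how the old fractions differ from young HSCs, and none of the 33 genes passed in either. The libraries did not overlap for 7 of 33 genes in AThi against young, 5 above and 2 below, beside 27.8% of all genes (13.8% above and 14.0% below). In ATlo against young they did not overlap for 8 of 33, 5 above and 3 below, beside 30.8% (15.8% above and 15.0% below). The median log2 fold change of the 23 sterol genes in the authors' deposited table was -0.02 in AThi and 0.16 in ATlo, and that of all genes was 0.00 and 0.01. Insig1 (chromosome 5, 28071363 to 28078662) had the smallest adjusted p of the 23 sterol genes in AThi against young. Its protein brakes SREBP processing when sterol is plentiful. Insig1 stood at 1283 and 1846 (young), 4374, 1939 and 2309 (AThi), and 3507, 1562 and 2122 (ATlo). All 3 AThi libraries lay above both young ones, and ATlo O11 lay between the young values. The O10 library was the highest in both fractions. The authors' deposited table gave a log2 fold change of 0.88 (SE 0.37, adjusted p 0.19) in AThi and a log2 fold change of 0.62 (SE 0.37, adjusted p 0.47) in ATlo, with 95% intervals of 0.15 to 1.61 and -0.11 to 1.35, and edgeR gave adjusted p of 0.47 and 0.62. Without AThi O10 the log2 fold change in AThi against young was 0.44 (adjusted p 0.73). Its partner Insig2 stayed between 553 and 892 normalized counts in all 8 libraries. Scap was at 2122 ± 342 in young (SD, n = 2), 1940.4 ± 215 in AThi and 2076 ± 447 in ATlo (SD, n = 3 in either old group). Srebf2 was at 4677 ± 366, 5673 ± 1198 and 5339 ± 399 in the same groups.

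Among the enzymes, Fdps stood at 224 and 333 (young), 272, 415 and 337 (AThi), and 606, 439.8 and 410.5 (ATlo). All 3 ATlo libraries were above both young libraries, and the AThi libraries overlapped both groups. In the authors' deposited table Fdps had a log2 fold change of 0.80 (SE 0.35, adjusted p 0.20) in ATlo against young (95% interval 0.12 to 1.48), and edgeR gave an adjusted p of 0.37. Ebp, the isomerase that shifts a double bond in the sterol ring (chromosome X, 8185329 to 8193512), was at 375 and 259.8 (young), 499, 360.0 and 388 (AThi), and 411, 527 and 553 (ATlo). The ATlo values again lay above the young ones, with a log2 fold change of 0.65 (SE 0.31, adjusted p 0.28) by the authors' deposited table and a 95% interval of 0.04 to 1.26. Without young D12, with D11 as the only young library, the log2 fold change of Ebp was 0.41 (adjusted p 0.79). Lss, which closes the sterol rings to form lanosterol, was at 632 and 1089.8 (young), 1298, 1417 and 1027 (AThi), and 1190.3, 1327 and 1015 (ATlo). The young libraries were apart from each other, with D12 inside the range of the old ones. The authors' deposited table gave a log2 fold change of 0.54 (SE 0.27, adjusted p 0.36) for Lss in AThi against young. With D11 as the only young library, its spread taken from the other groups, the DESeq2 refit called Lss (log2 fold change 0.98, adjusted p 0.036), and without D11 its log2 fold change was 0.20. Without all 3 libraries that held B cell transcripts its adjusted p was 0.026. Over its 16 alternative fits the adjusted p ran from 0.026 to 0.95. Hsd17b7 in ATlo against young had a log2 fold change of -0.99 (SE 0.57, adjusted p 0.44) by the authors' deposited table, with all 3 ATlo libraries below both young ones. Mvd, which decarboxylates mevalonate diphosphate, was below both young libraries in all 6 old ones, at 156 and 219.6 (young), 41, 129.9 and 116 (AThi), and 92.7, 144 and 96.4 (ATlo). At these low counts the authors' deposited table gave a log2 fold change of -0.97 (SE 0.59, adjusted p 0.51) in AThi and a log2 fold change of -0.76 (SE 0.59, adjusted p 0.63) in ATlo.

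Among the remaining sterol enzymes, Idi1, which isomerises isopentenyl diphosphate, was at 989.5 ± 49.2 normalized counts in young (SD, n = 2), 973 ± 70.5 in AThi and 1019 ± 199 in ATlo (SD, n = 3 in either old group). Cyp51 was at 1813 ± 404, 1999.7 ± 187 and 2027 ± 217. Sqle, squalene epoxidase, a rate-limiting oxygen-dependent step, was at 1809 ± 679, 1799 ± 127 and 2036 ± 354. For Fdft1, the squalene synthase, the 95% interval of the log2 fold change was -0.25 to 0.53 in AThi against ATlo, -0.43 to 0.45 in AThi against young and -0.57 to 0.31 in ATlo against young. Sc5d and Dhcr7, which finish the sterol nucleus, had intervals of -0.56 to 0.35 and -0.74 to 0.15 in AThi against ATlo. Stard4, the best expressed sterol gene per kilobase, was at 6519.9 ± 933, 5676 ± 300.4 and 5448 ± 608, with an interval of -0.56 to 0.04 in ATlo against young. The weakly expressed Mvk and Tm7sf2 left much wider intervals in AThi against young, -0.09 to 2.35 and -0.15 to 2.15.

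By the authors' deposited table, the median log2 fold change of the 10 fatty acid genes against young was 0.26 in AThi and 0.22 in ATlo. Fads2, the delta-6 desaturase of polyunsaturated fatty acid synthesis (chromosome 19, 10062765 to 10101746), was at 3000.1 and 3092 (young), 4208, 4455 and 4237 (AThi), and 4468, 5421 and 3193 (ATlo). All 6 old libraries lay above both young ones, and ATlo O12 lay only just above them. The authors' deposited table gave a log2 fold change of 0.50 (SE 0.21, adjusted p 0.17) in AThi and a log2 fold change of 0.52 (SE 0.21, adjusted p 0.15) in ATlo, with 95% intervals of 0.09 to 0.90 and 0.11 to 0.92. Without ATlo O12 the DESeq2 refit called Fads2 in both comparisons (adjusted p 0.018 and 0.0011), and over all 16 alternatives its adjusted p ran from 0.018 to 0.50 in AThi and from 0.0011 to 0.52 in ATlo. Without ATlo O11 the log2 fold change in ATlo against young was 0.33 (adjusted p 0.51). Fads1, its neighbour on chromosome 19, was at 4875 ± 878 in young (SD, n = 2), 6224 ± 1196 in AThi and 5474 ± 627 in ATlo (SD, n = 3 in either old group).

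Acaca was below both young libraries in all 3 AThi libraries and in 2 of 3 ATlo libraries. The authors' deposited table gave a log2 fold change of -0.45 (SE 0.18, adjusted p 0.14) in AThi against young (95% interval -0.80 to -0.10), and edgeR gave an adjusted p of 0.31. Without young D12 the log2 fold change of Acaca was -0.30 (adjusted p 0.77). Me1 (chromosome 9, 86581371 to 86695953) was at 169 and 252 (young), 531, 302 and 432 (AThi), and 404, 257 and 217 (ATlo). The AThi libraries lay above both young ones, and the ATlo libraries overlapped them. Its value in AThi against young was a log2 fold change of 0.999 (SE 0.41, adjusted p 0.17) by the authors' deposited table, with a 95% interval of 0.19 to 1.81. Srebf1 was at 865 and 1217 (young), 1506, 1623 and 829.6 (AThi), and 1243, 3029 and 1332 (ATlo). ATlo O11 alone was far above the other libraries, and a log2 fold change of 0.84 (SE 0.40, adjusted p 0.27) for ATlo against young, by the authors' deposited table, became 0.31 without that library. The central enzyme Fasn was at 3003 ± 309 in young (SD, n = 2), 3035 ± 333 in AThi and 3642 ± 597 in ATlo (SD, n = 3 in either old group). Acly was at 3167 ± 766, 3035 ± 191 and 3525 ± 836 in the same groups. Elovl6 had 95% intervals of -0.18 to 0.53 in AThi and -0.44 to 0.27 in ATlo against young.

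Scd1 had the largest gap between the young libraries of the 33 genes. Its normalized counts were 181 and 1263 (young), 1503, 1330.1 and 2521 (AThi), and 1102, 1073 and 1499 (ATlo), so that D11 stood below every other library and D12 stood within the range of ATlo. The ratio of D12 to D11 was 6.99. With both young libraries the authors' deposited table gave a log2 fold change of 1.31 (SE 0.79, adjusted p 0.50) in AThi and a log2 fold change of 0.76 (SE 0.79, adjusted p 0.76) in ATlo. With D11 as the only young library, the DESeq2 refit gave log2 fold changes of 3.31 and 2.76 (adjusted p 5.7e-14 and 1.6e-09), the lone sample being assumed to vary like the other groups. Without all 3 libraries that held B cell transcripts it gave 2.97 and 2.59 (adjusted p 1.6e-14 and 8.5e-11). With D12 as the only young library, it gave 0.50 and -0.039 (adjusted p 0.71 and 0.997). Over 16 alternative fits each, the adjusted p ran from 1.6e-14 to 0.71 in AThi and from 8.5e-11 to 0.997 in ATlo. D11 was also the library with the high Xist level and D12 the one with B cell transcripts, and their part in Scd1 was not tested. Scd2 (chromosome 19, 44293674 to 44306864), near Scd1 (chromosome 19, 44394455 to 44407879), showed no such gap, at 8649 and 10300.3 (young), 9749, 7975 and 8099.7 (AThi), and 8136, 7852 and 7647 (ATlo). The Scd genes are close paralogs, so reads may be divided between them unevenly.

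**Figure D4:**
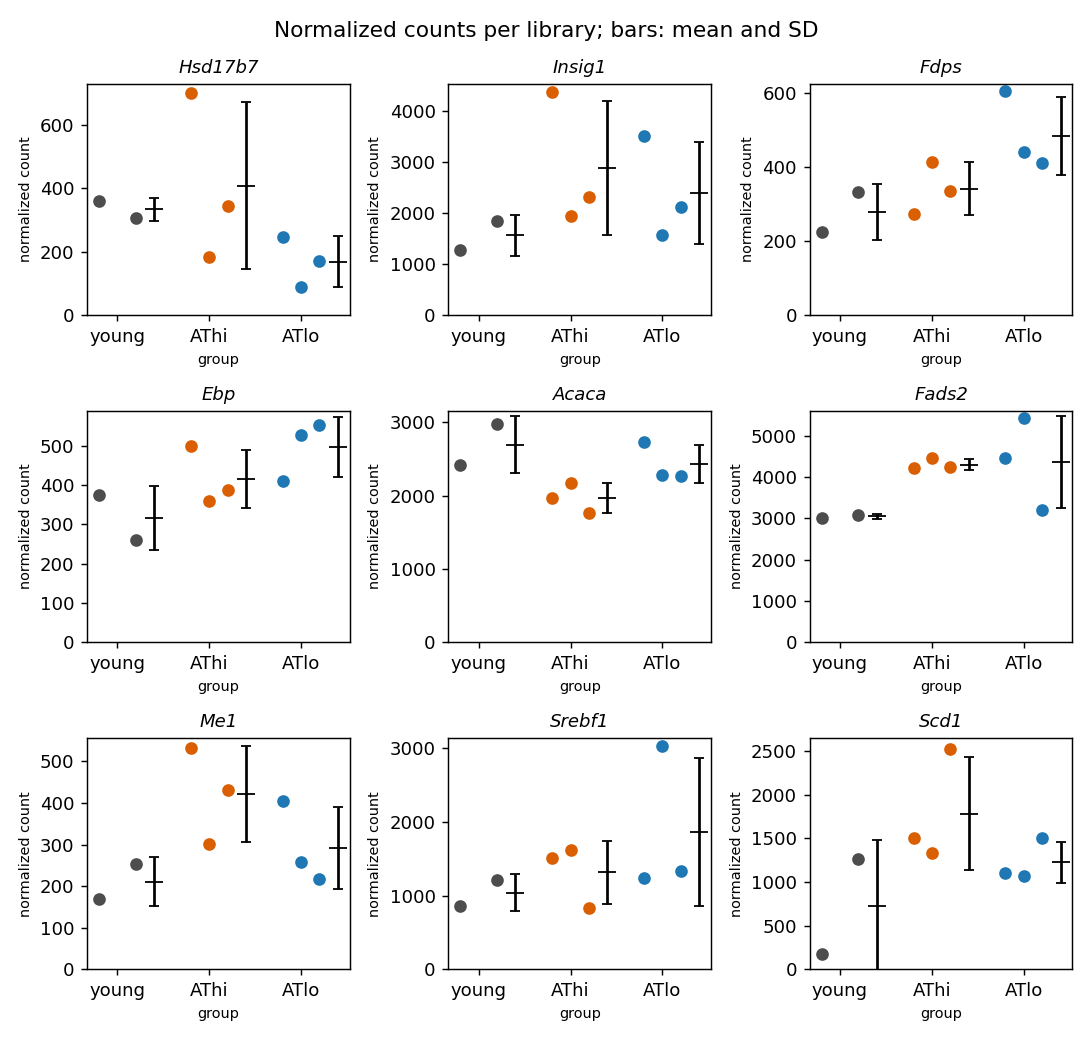
Normalized counts (y axis, from 0) of 9 genes in each library (points, by group) with the mean and SD of the group (n = 2 young, 3 AThi, 3 ATlo); the SD bar of Scd1 in young is clipped at 0. Insig1, Me1, Fads2 and Scd1 lie higher in AThi than in young without overlap, and Acaca lower, but none of the 9 passed the adjusted threshold.

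Most genes of both pathways had a higher value in young D12 than in young D11, 27 of 33 in all and 9 of 10 fatty acid genes, of which 4 were at least 1.3 times as high. In D12, 13 of 18 sterol enzymes were above D11, and 10 of 18 were at least 1.3 times as high, beside 50.5% and 19.9% of all genes with a mean of 100 or more normalized counts. The median ratio of the enzymes was 1.34. Msmo1 was at 908 and 1711 in D11 and D12, Sqle at 1329 and 2289, Lss at 632 and 1089.8 and Hmgcs1 at 1423 and 2129. Pmvk, Tm7sf2, Hsd17b7, Ebp and Dhcr7 were the 5 enzymes without a higher value in D12. With 1 library on each side, this comparison has no replicate check. Among old libraries, the O10 library was the highest of its fraction in both AThi and ATlo for 9 of 23 sterol genes and 3 of 10 fatty acid genes, beside 13.4% of all genes with that mean. Insig1, Hmgcs1, Msmo1, Acat2 and Dhcr7 were among them. Of the 18 sterol enzymes, O10 was the highest for 10 in AThi (35.1% of all genes) and for 11 in ATlo (32.6%). O10 carried low B cell marker levels, as O11 did, and cycling gene levels at the low end of its fraction. The part of either in the O10 values was not tested.

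Genes around the pathways were taken from lists of pathway membership. Of 29 further sterol genes in the tables (uptake, export, storage and sterol sensing), 0 were higher and 0 lower in AThi against ATlo, 2 higher and 1 lower in AThi against young, and 2 higher and 0 lower in ATlo against young, in the authors' deposited table. Over all genes, 3.47%, 3.13% and 2.37% were called higher and 4.43%, 1.91% and 1.98% lower. In AThi against ATlo 4 of the 29 had an unadjusted p below 0.05 in that DESeq2 test, beside 18.0% of all genes, and edgeR called 0, with 1 at an unadjusted p below 0.05. Vldlr, a receptor that takes up triglyceride-rich lipoproteins, was at 3463 and 2773 (young), 10138, 11604 and 8496 (AThi), and 8798, 7945 and 7116 (ATlo). Every old library was above both young ones, with a log2 fold change of 1.69 (SE 0.18, adjusted p 4.6e-19) in AThi and a log2 fold change of 1.35 (SE 0.18, adjusted p 7.0e-12) in ATlo in the authors' deposited table and edgeR adjusted p of 0.0040 and 0.013. Cyb5r3, a reductase that feeds electrons to desaturases and sterol enzymes, had a log2 fold change of 0.60 (SE 0.18, adjusted p 0.026) and a log2 fold change of 0.60 (SE 0.18, adjusted p 0.030) by the authors' deposited table, and edgeR did not call it. Npc1, which exports cholesterol from lysosomes, was at 3249 and 2021 (young), 1399, 1561 and 1599 (AThi), and 1737, 1679.9 and 1809.8 (ATlo). It fell in AThi against young, with a log2 fold change of -0.79 (SE 0.21, adjusted p 0.0075) by the authors' deposited table, but edgeR did not call it (adjusted p 0.12), and the young libraries lay far apart.

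Of 41 further fatty acid and lipid genes, 1 was higher in AThi against ATlo, 3 in AThi against young and 1 in ATlo against young, and 0 were lower, in the authors' deposited table. The shares over all genes were 3.47%, 3.13% and 2.37% higher and 4.43%, 1.91% and 1.98% lower. Lpl, lipoprotein lipase, which frees fatty acids from lipoproteins, was at 99.7 and 139 (young), 997, 785 and 433 (AThi), and 899, 1136 and 956 (ATlo). The old libraries were all above 139, the higher of the young values, with a log2 fold change of 2.63 (SE 0.36, adjusted p 8.5e-11) in AThi and a log2 fold change of 3.06 (SE 0.36, adjusted p 1.5e-14) in ATlo in the authors' deposited table and edgeR adjusted p of 0.012 and 0.012. Fads3, beside Fads1 and Fads2 on chromosome 19, had a log2 fold change of 1.52 (SE 0.33, adjusted p 0.00036) in AThi against young in the authors' deposited table (edgeR adjusted p 0.078). Hacd4, a dehydratase of fatty acid elongation, had a log2 fold change of 0.59 (SE 0.18, adjusted p 0.029) there in the authors' deposited table (edgeR adjusted p 0.19). Scd3 (chromosome 19, 44203269 to 44244016), another desaturase gene near Scd1 and Scd2, was weakly expressed, at 18.7 and 51.7 (young), 89.3, 153 and 83.7 (AThi), and 9.43, 21.4 and 29.5 (ATlo). Its value in AThi against ATlo was a log2 fold change of 2.43 (SE 0.72, adjusted p 0.014) by the authors' deposited table, with an edgeR adjusted p of 0.12.

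The authors' deposited table of upstream regulators for AThi against ATlo lists 726 regulators. In it, 0 of the 33 genes stand as a regulator or among the target genes of one. Mouse symbols were matched to the human ones, with SCD and CYP51A1 for Scd1 and Cyp51. None of the 33 was called in this comparison. A list of targets drawn from called genes could therefore not hold them, and their absence as targets adds no separate result. The liver X receptor NR1H3, named after its values were seen, a sterol-sensing nuclear receptor that induces Srebf1 in other tissues, is listed in that authors' deposited table with an activation score of 1.067 and a log2 ratio of 1.828. The Nr1h3 gene itself had low counts, at 4.16 and 49.6 (young), 58.5, 41.8 and 39.8 (AThi), and 3.14, 27 and 9.33 (ATlo), and the authors' deposited table gave it an adjusted p of 0.38.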

How the data were processed

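Bulk RNA-seq of 8 HSC libraries was used. The submitters' processing notes name STAR, featureCounts, DESeq2 and GRCm38, without versions or strand setting. For each of 3 contrasts the authors deposited, per gene, log2 fold changes, standard errors, Wald scores, p-values raw and adjusted, and 8 columns of normalized signal, which are read counts over 1 factor per library. They also deposited an upstream regulator table. Columns were matched to groups by their headers.

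Reads were recovered as multiples of what 1 read is worth in each column (100% whole, to within 0.01) and refitted; the DESeq2 refit called 1414, 961 and 811 genes, as the deposited tables do. Recovered reads are an alternative, and the deposited Wald test with Benjamini-Hochberg adjustment below 0.05 is the main result. As a check for duplicate deposits, counts were compared within groups, and no pair matched within sampling noise (chi-square per degree of freedom 51.2 to 107). Depth speaks to counting error alone, since the labels name no molecular identifiers. Alternatives were edgeR 4.0.16, DESeq2 1.42.0 with TMM factors, limma 3.58.1 on log2(normalized count + 1) or + 0.5, low-count filters, leaving out libraries, and a replicate block, in R 4.3.3; the fits were tested on simulated data. Summaries used Python 3.11.15, pandas 2.3.3 and scipy 1.17.1. Pairs of AThi and ATlo libraries come from the header tags and the paired fractions in the labels' protocols. Deviations from the group means correlated across genes at 0.06, 0.05, 0.19 for same tags and -0.11 to 0.04 for different tags.

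The genes and lists were chosen with earlier results of these data known. Some genes of the lists are not reported here. All 33 genes are accounted for; the 8 with the smallest unadjusted p are described by library, together with members called under an alternative. Gene positions are from GENCODE M21 (GRCm38).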

Additional observations from a re-analysis of the deposited data

How the results depend on the processing

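Of 98 counts recomputed under alternatives, 84 were again 0, including every edgeR, TMM and limma fit, with or without a low-count filter and at either pseudocount, and the 14 others were 1. With the replicate block, which uses the pairs of old libraries for AThi against ATlo and only a shared tag number for the comparisons with young, DESeq2 called 1 sterol gene in AThi against ATlo (Hsd17b7, higher) and 0 fatty acid genes. In the same replicate block fit it called 0 sterol genes and 1 fatty acid gene in AThi against young (Scd1, higher), and 1 of each in ATlo against young (Hsd17b7 lower, Scd1 higher); edgeR with the block was run for AThi against ATlo alone and called 0. The young libraries come from other mice, so the shared number is no pairing. Over all genes, DESeq2 with the block called 1951 in AThi against ATlo, beside 1414 in the deposited table. Without the libraries tagged 12 it called 793 genes in AThi against ATlo. Without the libraries tagged 12, counts were 0 and 0 in AThi against ATlo, 1 sterol (Lss) and 1 fatty acid gene (Scd1) in AThi against young, and 0 and 1 (Scd1) in ATlo against young.

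Leaving out 1 library at a time gave 0 to 1 sterol genes in AThi against ATlo (Hsd17b7 without AThi O11 or ATlo O10) and in AThi against young (Lss without young D12). It gave 0 to 1 fatty acid genes in AThi against young and in ATlo against young (Scd1 without young D12, Fads2 without ATlo O12). The log2 fold change of Scd1 in ATlo against young ran from -0.039 without young D11 to 2.76 without young D12. For these values the cause was not tested, beyond the fewer libraries in each fit. Over all genes, DESeq2 called 1104 in AThi against ATlo without AThi O11 and 1422 without ATlo O10, beside 1414 with all libraries. Of 209 alternative fold changes for 13 combinations of gene and comparison, 208 kept their sign. These combinations were chosen for their values in these data, and the fits share most of their libraries. Kept signs are therefore no independent check. Every comparison with young rests on 2 young libraries.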
